A study of Mus musculus with 25 samples.

Results

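The colony stimulating factor system of mouse brain cortex was described here through 7 genes: the ligands Csf1 and Il34, their shared receptor Csf1r, the G-CSF receptor Csf3r, and the GM-CSF receptor alpha chain Csf2ra with the beta chains Csf2rb and Csf2rb2. They were taken by symbol from a table of 54532 genes. The table gives FPKM (fragments scaled to gene length and library size) for the cortex of 25 mice, 5 in each of 5 groups. The groups were wild-type mice on vehicle (WT_Veh) or on high P (WT_HighP), with 5xFAD mice on vehicle (AD_Veh), low P (AD_LowP) or high P (AD_HighP). The labels describe P as derived from a natural product and state neither its identity, its doses, how long it was given nor the age of the mice. The 5xFAD line carries mutant human transgenes of familial Alzheimer's disease under neuronal Thy1 sequences and deposits amyloid in the cortex, so it models familial mutations expressed by neurons.

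Csf1r is the receptor tyrosine kinase on which microglia, the resident macrophages of the brain, depend for survival and proliferation. Its ligands Csf1 and Il34 differ in source, since in brain Il34 is made mostly by forebrain neurons and Csf1 mostly by glia. GM-CSF signals through a specific alpha chain, Csf2ra, joined to a beta chain that is shared with the receptors of interleukin 3 and interleukin 5. Mice carry a second beta chain gene, Csf2rb2, which pairs with the interleukin 3 receptor. Csf3r binds G-CSF, the growth factor of neutrophils.

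Reads assigned to genes numbered 15518358 to 17698222 per library. The summed level of 10 excitatory neuron markers ran from 1050 to 2124 FPKM over the 25 libraries. Striatal markers, which cortex should hold at low level, ran from 54.2 to 1073 FPKM summed over 8 genes, and the choroid plexus gene Ttr exceeded 100 FPKM in 4 libraries, 2 of WT_HighP and 2 of AD_HighP. Mice numbered 1 to 3 in every group were male and the other 2 female, as Xist and Y-linked transcripts showed. Libraries also differed in how a gene's level followed its GC content, which is given below as a slope, the log2 deviation from the mean library per 10 percentage points of GC. Levels below are FPKM, given as the mean ± SD of 5 mice. Fold changes and their standard errors (SE) are on the log2(FPKM + 0.5) scale, which understates the change of low genes. They come from limma fitted to the 16450 genes that reached 0.5 FPKM in 5 or more libraries. Called means an adjusted p (Benjamini-Hochberg within a comparison) under 0.05.

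In mm10, Csf1r (ENSMUSG00000024621) lies on chromosome 18 from 61105572 to 61132149 on the plus strand and Csf3r (ENSMUSG00000028859) on chromosome 4 from 126024550 to 126044440 on the plus strand. Csf1 (ENSMUSG00000014599) lies on chromosome 3 from 107741048 to 107760469 and Il34 (ENSMUSG00000031750) on chromosome 8 from 110741829 to 110805924, both on the minus strand. Csf2ra (ENSMUSG00000059326) lies on chromosome 19 from 61224402 to 61228418 on the minus strand. The beta chain genes are neighbours on chromosome 15, Csf2rb2 (ENSMUSG00000071714) from 78282507 to 78305721 on the minus strand and Csf2rb (ENSMUSG00000071713) from 78325752 to 78353847 on the plus strand. All 7 are protein-coding.

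Csf1, Il34, Csf1r, Csf3r and Csf2ra reached 0.5 FPKM in all 25 libraries. Csf2rb reached it in 9 and Csf2rb2 in 5, which were 5xFAD libraries only, so their entry into the test depended on the genotype in which they were high and their calls between genotypes are not counted as support below. The counts for P are over all 7. Reads per library ran from 1092 to 3780 for Csf1r, from 530 to 1027 for Il34, from 238 to 958 for Csf1, from 134 to 422 for Csf2ra and from 79 to 421 for Csf3r, but only from 15 to 97 for Csf2rb and from 6 to 56 for Csf2rb2.

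**Figure D1:**
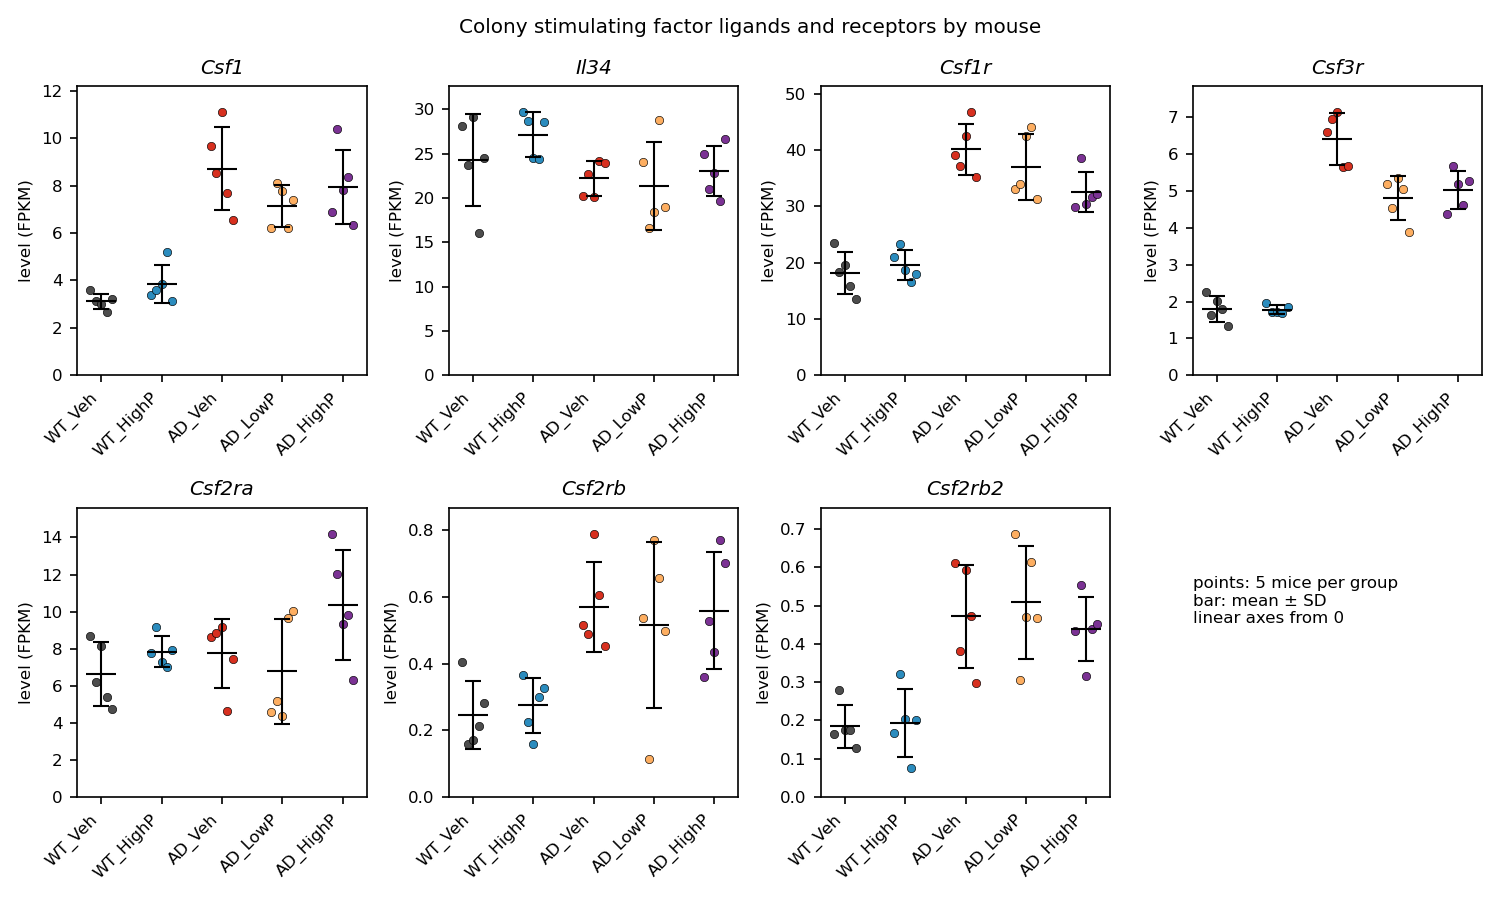
Level in FPKM (linear axes from 0) of the 7 genes in each mouse by group, with the mean and SD of 5 mice. Csf1, Csf1r and Csf3r stand higher in every 5xFAD mouse than in every wild-type mouse, while the groups of Il34 and Csf2ra overlap.

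Csf1, Csf1r and Csf3r rose in 5xFAD cortex, and Il34 and Csf2ra were not called. Of the 5 genes measured above the minimum in all libraries, 3 were called higher in AD_Veh than in WT_Veh and none lower, where 3.10% of all tested genes were called and 2.83% were called higher. The vehicle groups of these 3 did not overlap, as was so with 5xFAD higher for 3.02% of tested genes. The rise was also called under high P, in the comparison of AD_HighP with WT_HighP, for the same 3 genes (1.75% of tested genes called, 1.50% higher, and 3.22% without overlap and higher). Striatal markers had a median log2 difference of -1.46 between those groups, against -0.17 under vehicle, with 0 of 8 called in each comparison. Summed, these markers ran from 128 to 930 FPKM in WT_HighP and from 54.2 to 461 in AD_HighP, ranges that overlap. Their part in these values was not tested. Csf2rb and Csf2rb2 stood at higher mean levels in 5xFAD mice but were not called.

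Csf1, the macrophage growth factor of glia, stood at 3.58, 3.12, 3.00, 2.67 and 3.21 FPKM in the 5 WT_Veh mice and at 9.66, 8.52, 11.1, 7.70 and 6.56 FPKM in the 5 AD_Veh mice. The lowest 5xFAD mouse was above the highest wild-type mouse. The means were 3.12 ± 0.332 and 8.71 ± 1.75 FPKM, a 2.79-fold difference (log2 1.33, SE 0.14, adjusted p = 4.1e-07). Under high P the levels were 3.40, 3.59, 3.87, 5.19 and 3.13 FPKM in wild-type mice and 6.87, 10.4, 7.82, 8.35 and 6.35 FPKM in 5xFAD mice, again without overlap (log2 0.96, SE 0.14, adjusted p = 0.000107). In order of mean level the groups were AD_Veh, AD_HighP, AD_LowP, WT_HighP and WT_Veh. Of the neighbours in that order only AD_LowP and WT_HighP did not overlap.

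Il34, the neuronal ligand of the same receptor, was the more abundant ligand in every group. It stood at 28.1, 23.7, 29.1, 16.0 and 24.5 FPKM in WT_Veh and at 20.2, 22.7, 20.1, 24.1 and 23.9 FPKM in AD_Veh. The groups overlapped, with the highest and the lowest value both in WT_Veh. The means of 24.3 ± 5.16 and 22.2 ± 1.96 FPKM gave a log2 difference of -0.10 (SE 0.14, adjusted p = 0.873), and the difference under high P was -0.24 (SE 0.14, adjusted p = 0.625). The 5 group means ran from 21.4 ± 4.98 FPKM in AD_LowP to 27.1 ± 2.54 in WT_HighP, and every pair of neighbours in their order overlapped. Antisense transcripts overlap Il34, and although the libraries were strand-specific how the counting used strand is not stated in the labels.

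Csf1r, the receptor of both ligands, stood at 23.5, 18.4, 19.6, 15.9 and 13.5 FPKM in WT_Veh and at 39.0, 37.2, 42.5, 46.7 and 35.2 FPKM in AD_Veh. All 5 vehicle-treated 5xFAD mice were above all 5 vehicle-treated wild-type mice. The means were 18.2 ± 3.76 and 40.1 ± 4.55 FPKM, a 2.21-fold difference (log2 1.14, SE 0.13, adjusted p = 1.34e-06). Beside it, the summed level of 20 microglia markers was 198 to 275 FPKM in WT_Veh and 628 to 881 FPKM in AD_Veh. In bulk tissue, more cells of a type and more RNA per cell cannot be told apart. Under high P the difference was also called (log2 0.72, SE 0.13, adjusted p = 0.00127), with 21.0, 23.4, 18.7, 16.6 and 18.1 FPKM in wild-type mice and 29.9, 38.6, 30.4, 31.6 and 32.3 FPKM in 5xFAD mice. The groups ranked AD_Veh, AD_LowP, AD_HighP, WT_HighP and WT_Veh, and among neighbours only AD_HighP and WT_HighP did not overlap.

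Csf3r, the G-CSF receptor, showed the largest fold change of the 7 genes in both genotype comparisons. It stood at 2.26, 1.64, 2.01, 1.79 and 1.33 FPKM in WT_Veh and at 6.60, 6.95, 7.13, 5.64 and 5.67 FPKM in AD_Veh, with a wide gap between the groups. The means of 1.80 ± 0.356 and 6.40 ± 0.706 FPKM differed 3.55-fold (log2 1.59, SE 0.11, adjusted p = 2.44e-10), and under high P the log2 difference was 1.27 (SE 0.11, adjusted p = 2.86e-08). Neutrophils are the best known carriers of this receptor. Their marker Ly6g had no read in 24 of 25 libraries and Cxcr2 none in 17. The summed level of 12 neutrophil markers was 1.04 to 2.66 FPKM in WT_Veh and 0.779 to 6.96 FPKM in AD_Veh, ranges that overlap. The 3 tested markers had log2 differences of 0.18 to 0.33, all higher in AD_Veh. Of these 0 was called, near the 3.10% of all tested genes that were called. Whether neutrophils bear on Csf3r was not tested. Csf3r ranked AD_Veh, AD_HighP, AD_LowP, WT_Veh and WT_HighP, and of those neighbours only AD_LowP and WT_Veh did not overlap.

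**Figure D2:**
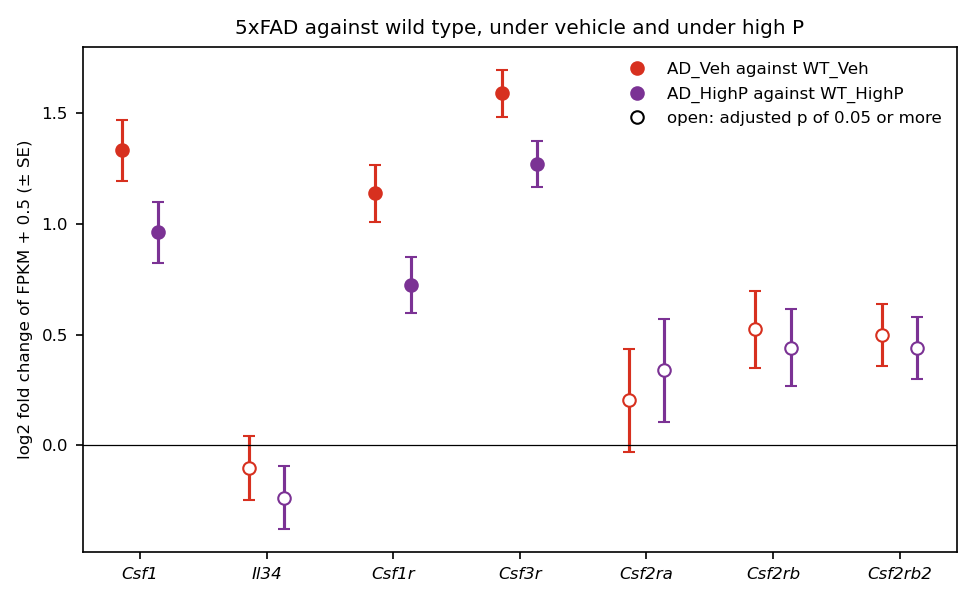
Log2 fold change of FPKM + 0.5 with its SE for the 7 genes, 5xFAD against wild type under vehicle (red) and under high P (purple), 5 mice a group. Filled points have an adjusted p under 0.05: Csf1, Csf1r and Csf3r in both comparisons.

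None of the chains of the GM-CSF receptor was called between genotypes. Csf2ra, which binds the ligand, stood at 8.70, 6.20, 8.16, 5.41 and 4.75 FPKM in WT_Veh and at 8.60, 8.84, 9.19, 4.64 and 7.44 FPKM in AD_Veh, so that the groups covered much the same range. The means were 6.64 ± 1.72 and 7.74 ± 1.86 FPKM (log2 0.20, SE 0.23, adjusted p = 0.832). With GC correction the log2 difference was 0.10 (adjusted p = 0.904), and with array weights it was 0.37 (adjusted p = 0.311). Under high P the log2 difference was 0.34 (SE 0.23, adjusted p = 0.681).

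Csf2rb, the common beta chain, ran from 0.158 to 0.404 FPKM in WT_Veh and from 0.454 to 0.790 FPKM in AD_Veh. The beta chain of the interleukin 3 receptor, Csf2rb2, ran from 0.128 to 0.280 and from 0.299 to 0.613 FPKM in the same groups. Neither gene's vehicle groups overlapped, as was so with 5xFAD higher for 3.02% of tested genes. Both genes entered the test only through 5xFAD libraries, so the values and calls below are not counted as support. The log2 differences were 0.52 (SE 0.17, adjusted p = 0.131) for Csf2rb and 0.50 (SE 0.14, adjusted p = 0.0544) for Csf2rb2, on a scale whose pseudocount is as large as the levels themselves. The linear ratios of the means were 2.33 and 2.56. With voom on recovered reads the log2 differences were 1.28 (adjusted p = 0.115) for Csf2rb and 1.34 (adjusted p = 0.0236) for Csf2rb2. Csf2rb2 was also called with a pseudocount of 0.1 (log2 1.00, adjusted p = 0.0482), with no filter (adjusted p = 0.0309), with array weights (adjusted p = 0.0366), without WT_Veh mouse 2 (adjusted p = 0.0478) and without AD_Veh mouse 5 (adjusted p = 0.0278), and Csf2rb with array weights (adjusted p = 0.027). Of the 50-base stretches in their annotated transcripts, 892 are identical between the genes, which is 12.3% of those of Csf2rb and 18.4% of those of Csf2rb2, so reads can be shared and both levels are uncertain. Under high P the log2 differences were 0.44 (SE 0.17, adjusted p = 0.317) for Csf2rb and 0.44 (SE 0.14, adjusted p = 0.153) for Csf2rb2, and the groups of each overlapped. Csf2rb2 was called there with voom (log2 1.31, adjusted p = 0.043) and with array weights (adjusted p = 0.0204).

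The sequences before the start sites are shown because Csf1 and Csf3r rose together while Csf2ra did not, and because the myeloid factor PU.1, the product of Spi1, binds sequences with the core GAGGAA. That hexamer was searched on both strands (TTCCTC on the other) in the 250 bases before each RefSeq start of GRCm38.p6, and 23.3% of 32851 such windows hold it. Windows were found for 4 of the 7 genes. Those of Csf1 (chr3:107760470-107760719, minus strand), Csf2ra (chr19:61228419-61228668, minus strand) and Csf2rb2 (chr15:78305722-78305971, minus strand) are printed whole, and that of Csf3r by 30 bases around its match (chr4:126024561-126024590, plus strand), because the RefSeq start lies inside the gene as deposited. Letters run 5′ to 3′ on the gene's strand, with the hexamer in capitals.
Csf1: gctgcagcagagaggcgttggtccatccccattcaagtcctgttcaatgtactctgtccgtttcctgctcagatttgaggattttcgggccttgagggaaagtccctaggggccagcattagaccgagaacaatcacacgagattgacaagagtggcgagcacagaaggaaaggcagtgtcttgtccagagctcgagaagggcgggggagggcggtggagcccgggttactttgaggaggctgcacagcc
Csf3r: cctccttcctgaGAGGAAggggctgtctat
Csf2ra: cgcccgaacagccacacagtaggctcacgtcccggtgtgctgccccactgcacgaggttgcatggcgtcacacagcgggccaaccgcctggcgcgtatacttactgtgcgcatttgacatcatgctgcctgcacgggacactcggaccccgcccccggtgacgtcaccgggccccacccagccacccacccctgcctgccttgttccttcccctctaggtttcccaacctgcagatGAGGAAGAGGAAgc
Csf2rb2: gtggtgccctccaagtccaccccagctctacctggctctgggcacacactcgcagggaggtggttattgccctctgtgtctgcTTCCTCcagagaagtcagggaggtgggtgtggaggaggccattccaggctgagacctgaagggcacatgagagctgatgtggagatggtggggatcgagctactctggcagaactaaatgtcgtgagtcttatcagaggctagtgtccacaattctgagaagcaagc
The Csf1 window holds no match and the Csf3r window holds 1, beginning 86 bases before the RefSeq start. That match lies inside the gene as deposited, which starts at 126024550. The Csf2ra window holds 2 in tandem, beginning 14 and 8 bases before the start, and the Csf2rb2 window holds 1, beginning 167 bases before it. A match is a description of the letters and not a binding site.

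Ratios within a mouse set Csf1r and Csf1 against Il34 and against each other. FPKM is per length, so levels of different genes were set against each other, without correction for GC content. The log2 ratio of Csf1r to Il34 was -0.25, -0.36, -0.56, -0.01 and -0.83 in the WT_Veh mice and 0.93, 0.70, 1.07, 0.94 and 0.55 in the AD_Veh mice. The ratio was thus below 0 in the WT_Veh mice, though at about 0 in mouse 4, and above 0 in every AD_Veh mouse. The means differed by 1.24 (two-sided exact permutation p = 0.00794, the smallest that 5 against 5 mice allows, adjusted p = 0.0381 over 24 ratio tests). Under high P they differed by 0.961 (exact p = 0.00794, adjusted p = 0.0381).

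The log2 ratio of Csf1 to Il34 was -2.75 ± 0.249 in WT_Veh and -1.32 ± 0.394 in AD_Veh, so Csf1 remained the scarcer ligand in both groups while the gap narrowed by 1.43 (exact permutation p = 0.00794, adjusted p = 0.0381). Under high P the difference was 1.20 (exact p = 0.00794, adjusted p = 0.0381). It was not called without WT_HighP mouse 5 or without AD_HighP mouse 2, 3 or 4 (1.12, 1.07, 1.20 and 1.12, adjusted p = 0.0762 in each). The 2 groups did not overlap with all mice, and so not with a mouse left out. With 4 against 5 mice fewer arrangements are possible, so the lost calls cannot show whether the result rests on single mice. The log2 ratio of Csf1r to Csf1 was 2.35 ± 0.254 in WT_Veh and 2.16 ± 0.267 in AD_Veh, a difference of -0.194 that was not called (exact p = 0.278, adjusted p = 0.47). Against the mean log2 level of the 20 microglia markers, Csf1r stood at 1.17 ± 0.155 in WT_Veh and 0.960 ± 0.126 in AD_Veh (exact p = 0.0556, adjusted p = 0.214). The same ratio was 1.30 ± 0.0278 in WT_HighP and 0.931 ± 0.104 in AD_HighP, a difference of -0.367 without overlap (exact p = 0.00794, adjusted p = 0.0381): under high P, Csf1r differed between genotypes by less than the marker mean.

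**Figure D3:**
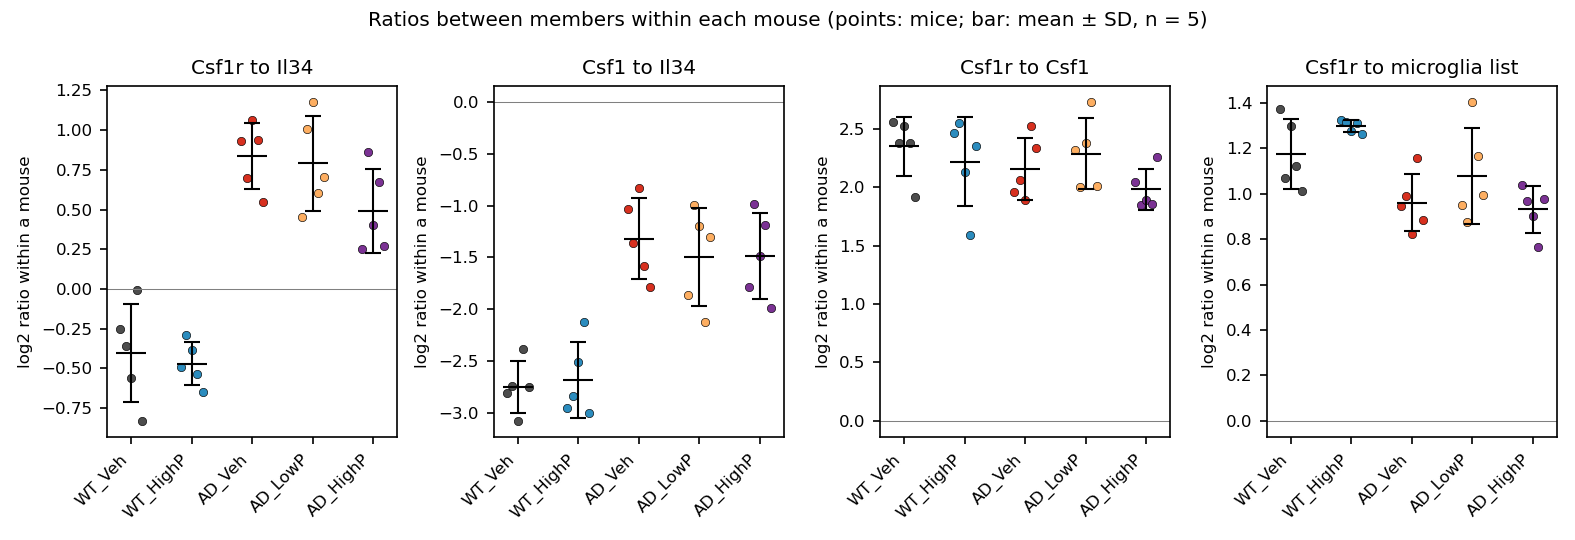
Log2 ratios within each mouse (points) with the mean and SD of 5 mice: Csf1r to Il34, Csf1 to Il34, Csf1r to Csf1, and Csf1r to the mean of 20 microglia markers. The first pair of ratios separates 5xFAD from wild-type mice under vehicle, and Csf1r to Csf1 does not.

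No member was called for P in either genotype. In 5xFAD mice 0 of 7 were called for low P against vehicle (1 at an unadjusted p under 0.05), 0 of 7 for high P against vehicle (2) and 0 of 7 for high against low P (1), by limma. With voom the counts were also 0, with 1, 2 and 1 at an unadjusted p under 0.05. Few genes were called at all, with 0% of tested genes for low P, 0.00608% for high P and 0% between the doses. Each pair of these comparisons shares a group, AD_Veh, AD_LowP or AD_HighP. The summed level of the 8 striatal markers differed in range between these groups, at 251.9 to 653 FPKM in AD_Veh, 60.9 to 578 in AD_LowP and 54.2 to 461 in AD_HighP. Their median log2 difference from AD_Veh was -1.04 for low P and -1.77 for high P, with 0 of 8 called, and its part in the values below was not tested.

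Csf3r was the member with the smallest p against vehicle. It stood at 5.18, 4.53, 5.35, 5.06 and 3.89 FPKM in AD_LowP and at 4.38, 5.67, 5.17, 4.61 and 5.26 FPKM in AD_HighP. All 5 AD_LowP mice lay below the 5.64 FPKM of the lowest AD_Veh mouse, as was the case for 0.267% of tested genes, whereas 1 AD_HighP mouse exceeded it. The log2 differences from AD_Veh were -0.38 (SE 0.11, unadjusted p = 0.00139, adjusted p = 1) for low P and -0.32 (SE 0.11, unadjusted p = 0.00556, adjusted p = 0.78) for high P. Over the same groups the summed level of 12 plaque-associated microglia genes was 334 to 563 FPKM in AD_Veh, 333 to 387 in AD_LowP and 301 to 486 in AD_HighP. Whether that bears on Csf3r was not tested.

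For Csf1r the AD_LowP mice stood at 33.0, 33.9, 42.4, 44.1 and 31.3 FPKM, with 3 of the 5 below the lowest AD_Veh mouse and the other 2 within the range of AD_Veh. The log2 difference from AD_Veh was -0.12 (SE 0.13, adjusted p = 1) for low P and -0.30 (SE 0.13, unadjusted p = 0.0293, adjusted p = 0.78) for high P. For Csf1 the AD_LowP mice stood at 6.22, 8.10, 7.78, 6.23 and 7.38 FPKM, which overlaps AD_Veh. The log2 difference was -0.26 (SE 0.14, adjusted p = 1) for low P and -0.12 (SE 0.14, adjusted p = 0.833) for high P.

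Csf2ra differed most between the doses without being called. The 5 AD_LowP mice stood at 4.57, 5.19, 4.37, 9.66 and 10.1 FPKM and the 5 AD_HighP mice at 14.2, 12.04, 9.33, 9.81 and 6.31 FPKM. The AD_LowP values fell into 3 low and 2 high mice, the former males and the latter females. The sexes did not keep that order in the other 5xFAD groups. In AD_Veh the males stood at 8.60, 8.84 and 9.19 FPKM and the females at 4.64 and 7.44. In AD_HighP the females, at 9.81 and 6.31 FPKM, lay within or below the range of the males. The log2 difference was 0.62 for high against low P (SE 0.23, unadjusted p = 0.0141, adjusted p = 0.773), 0.38 for high P against vehicle (SE 0.23, adjusted p = 0.78) and -0.23 for low P against vehicle (SE 0.23, adjusted p = 1). In AD_LowP the GC slopes of the libraries, in the order of the mice, were -0.282, -0.278, 0.0227, 0.159 and 0.158. Csf2ra has the highest GC content of the 7 genes at 57.8%, above that of 89.4% of tested genes. Across the 15 5xFAD mice its log2 level and the GC slope correlated with r = 0.731 (permutation p = 0.00219, adjusted p = 0.0511) and rho = 0.811 (permutation p = 0.0005, adjusted p = 0.0348), and r was 0.788 without the 2 mice farthest from the median. After subtraction of group means r was 0.710 (permutation p within groups 0.0184, adjusted p = 0.196), which was not called. With GC correction the difference between doses was 0.49 (adjusted p = 0.652).

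In wild-type mice high P against vehicle called 0 of 7 genes by limma, 0 of them at an unadjusted p under 0.05, and 0 by voom, where 3.17% of tested genes were called. That background was 522 genes, and 23 with GC correction. Csf1 stood at 3.83 ± 0.803 FPKM in WT_HighP, where mouse 4 was high at 5.19, against 3.12 ± 0.332 in WT_Veh. The log2 difference was 0.25 (SE 0.14, adjusted p = 0.242) and 0.08 with GC correction (adjusted p = 0.895). GC slopes were -0.291 to 0.0726 in WT_Veh and 0.0983 to 0.232 in WT_HighP, without overlap. The interaction asked whether the effect of high P differed between genotypes. It called 0 of 7 genes (2 at an unadjusted p under 0.05 by limma, 0 called and 1 by voom) and 0% of tested genes. Its log2 values were -0.41 for Csf1r (SE 0.18, unadjusted p = 0.0319, adjusted p = 0.71), -0.37 for Csf1 (SE 0.20, adjusted p = 0.723) and -0.32 for Csf3r (SE 0.15, adjusted p = 0.71). Of the 49 pairs of gene and comparison, 18 changed sign under some setting, all of them in the comparisons of P or the interaction and none of them called. For those pairs levels alone are given.

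Il34 stood at 29.7, 28.7, 24.5, 24.3 and 28.6 FPKM in the WT_HighP mice, at 24.0, 16.6, 18.5, 28.8 and 19.0 in AD_LowP and at 24.99, 21.0, 22.8, 19.7 and 26.7 in AD_HighP. These ranges overlapped one another, and the AD_LowP mice were the most spread. Csf3r stood at 1.96, 1.71, 1.71, 1.68 and 1.85 FPKM in WT_HighP, all within the range of WT_Veh. Csf2ra stood at 7.77, 9.17, 7.26, 6.99 and 7.95 FPKM in WT_HighP, overlapping WT_Veh. In the same mice Csf2rb stood at 0.365, 0.226, 0.158, 0.299 and 0.327 FPKM and Csf2rb2 at 0.167, 0.322, 0.204, 0.0744 and 0.201 FPKM, each overlapping WT_Veh. The common beta chain Csf2rb stood at 0.536, 0.115, 0.771, 0.658 and 0.497 FPKM in AD_LowP and at 0.359, 0.528, 0.435, 0.772 and 0.702 in AD_HighP, and AD_LowP mouse 2 lay below every wild-type mouse. Its neighbour Csf2rb2 stood at 0.688, 0.306, 0.471, 0.614 and 0.467 FPKM in AD_LowP and at 0.433, 0.553, 0.315, 0.440 and 0.453 in AD_HighP, ranges that overlap that of AD_Veh.

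Across mice within a genotype, the ligands gave a negative correlation in 5xFAD cortex that was not called. Csf1 and Il34 correlated over the 15 5xFAD mice with r = -0.583 (permutation p = 0.0235, adjusted p = 0.126 over 70 correlations) and rho = -0.614 (permutation p = 0.0173, adjusted p = 0.151), and with r = -0.656 without the 2 mice farthest from the median. After subtraction of group means r was -0.753 (permutation p within groups 0.00015, adjusted p = 0.0105), which was called in that setting. In the 10 wild-type mice r was 0.266 (permutation p = 0.386, adjusted p = 0.634) and rho was 0.0909 (permutation p = 0.809). The difference between genotypes was not tested.

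**Figure D4:**
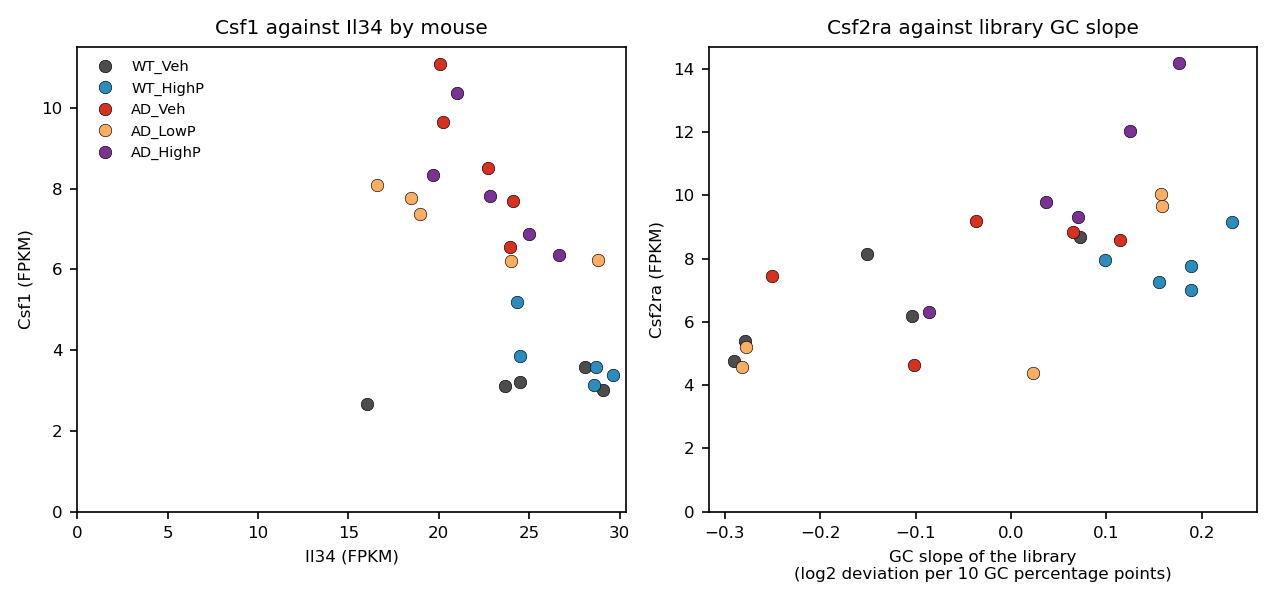
Left, Csf1 against Il34 in FPKM by mouse, with 5xFAD mice above 6 FPKM of Csf1 and wild-type mice below it. Right, Csf2ra in FPKM against the GC slope of the library (log2 deviation per 10 percentage points of GC), where the low AD_LowP mice include the libraries of the most negative slopes in that group.

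Csf1r was compared with the microglia markers in the same way. In wild-type mice it correlated with their mean log2 level with r = 0.879 (permutation p = 0.001, adjusted p = 0.035) and rho = 0.879 (permutation p = 0.00149, adjusted p = 0.0348), and r was 0.828 without the 2 farthest mice. In 5xFAD mice r was 0.690 (permutation p = 0.00484, adjusted p = 0.0679) and rho was 0.771 (permutation p = 0.00113, adjusted p = 0.0348), with r = 0.654 without the 2 farthest mice and r = 0.574 around group means (adjusted p = 0.25). Csf1r and Csf2ra correlated in wild-type mice with r = 0.906 (permutation p = 0.00019, adjusted p = 0.0133) and rho = 0.867 (permutation p = 0.00225, adjusted p = 0.0394), and r was 0.815 without the 2 farthest mice. With the GC slope neither correlation was called there, with r = 0.647 for Csf1r (rho = 0.491, permutation p of r = 0.0451, adjusted p = 0.177) and r = 0.759 for Csf2ra (rho = 0.539, permutation p of r = 0.0109, adjusted p = 0.109). Without the 2 farthest mice r with the slope was 0.519 for Csf1r and 0.310 for Csf2ra, so the value of Csf2ra leaned on them. Around group means it was 0.850 for Csf1r (permutation p within groups 0.00786, adjusted p = 0.138). For Csf2ra it was 0.785 around group means (permutation p within groups 0.047, adjusted p = 0.274). The part of the slope in the relation of Csf1r and Csf2ra was not tested. In 5xFAD mice Csf1r and Csf2ra gave r = -0.305 and rho = -0.386 (permutation p of r = 0.267, adjusted p = 0.62).

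The cytokines that bind the other receptors were not detected. Csf2 (GM-CSF), Csf3 (G-CSF) and Il3 had 0 reads in all 25 libraries. A limit of 3 reads in a library corresponds to at most 0.240 FPKM for Csf2, 0.136 for Csf3 and 0.305 for Il3, and covers counting error only. Il5 was at 0 in 19 libraries and Il5ra in 22. Il3ra, the alpha chain of the interleukin 3 receptor, rose between the vehicle groups, at 0.342 ± 0.155 FPKM in wild-type and 1.01 ± 0.295 in 5xFAD mice (log2 0.84, SE 0.19, adjusted p = 0.0087), and was the only tested gene of that list. Its wild-type level lay under the minimum, so its entry into the test, like that of the beta chains, depended on other groups. Under high P it was not called (log2 0.44, SE 0.19, adjusted p = 0.389). Among other reported receptors of Il34, Ptprz1, a phosphatase of astrocytes and precursor cells, stood at 19.0 ± 3.81 and 18.8 ± 4.55 FPKM in WT_Veh and AD_Veh and was not called, and the syndecan Sdc1 was under the minimum.

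Downstream of Csf1r, 6 of 29 tested signalling genes were called higher in AD_Veh than in WT_Veh and 0 lower, with a median log2 difference of 0.14 against -0.02 over all tested genes. Of all tested genes 2.83% were called higher. Tyrobp, the adaptor DAP12, rose, with 6.48 ± 1.69 FPKM in WT_Veh and 41.2 ± 12.7 FPKM in AD_Veh (log2 2.57, SE 0.21, adjusted p = 9.47e-09). The phosphatase Ptpn6 rose as well, with means of 1.00 ± 0.349 and 4.20 ± 0.912 FPKM (log2 1.66, SE 0.19, adjusted p = 1.26e-06). Smaller rises were called for the phospholipase Plcg2 (log2 0.79, adjusted p = 0.00067) and the kinase Fes (log2 0.75, adjusted p = 0.0099), with the lipid phosphatase Inpp5d and the kinase Lyn making up the 6. Ptpn6 and Inpp5d are known as negative regulators of such receptors. The widely expressed kinases and adaptors Mapk3, Akt1 and Grb2 were not called. Tyrobp is also in the microglia list. Under high P, 5 of the 29 were called higher and 0 lower, where 1.50% of all tested genes were called higher.

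Of the factors known to act on the Csf1r gene, 4 of 7 tested were called higher in AD_Veh and 0 lower. The share called higher over all tested genes was 2.83%. Cebpa rose from 4.52 ± 0.400 to 13.1 ± 2.36 FPKM (log2 1.43, adjusted p = 4.56e-07), Irf8 from 0.807 ± 0.142 to 2.82 ± 0.633 (log2 1.33, adjusted p = 1.13e-05) and Spi1 from 1.11 ± 0.472 to 3.16 ± 1.07 FPKM (log2 1.18, adjusted p = 0.000571). Cebpb, Ets2 and Fli1 were not called. Under high P, Irf8 and Spi1 were called higher, beside 1.50% of all tested genes. In wild-type mice Cebpa was also called higher for high P against vehicle (log2 0.76, SE 0.15, adjusted p = 0.0263), a gene of 62.6% GC. In the JAK-STAT pathway of the GM-CSF and G-CSF receptors, Stat3 alone was called, of 14 tested (5.40 ± 0.511 to 8.97 ± 0.721 FPKM, log2 0.68, SE 0.09, adjusted p = 1.23e-05), and the list's median was 0.08. Stat3 is the main signal transducer of G-CSF and is shared with many cytokines. Under high P 0 of the 14 were called. Of 7 related receptor tyrosine kinases and ligands, among them Kit, Flt3 and Pdgfra, 0 were called in either comparison, with a median of -0.05 under vehicle. Called genes were 3.10% of all tested genes under vehicle and 1.75% under high P, so counts of 0 in lists this short lie near that share.

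**Figure D5:**
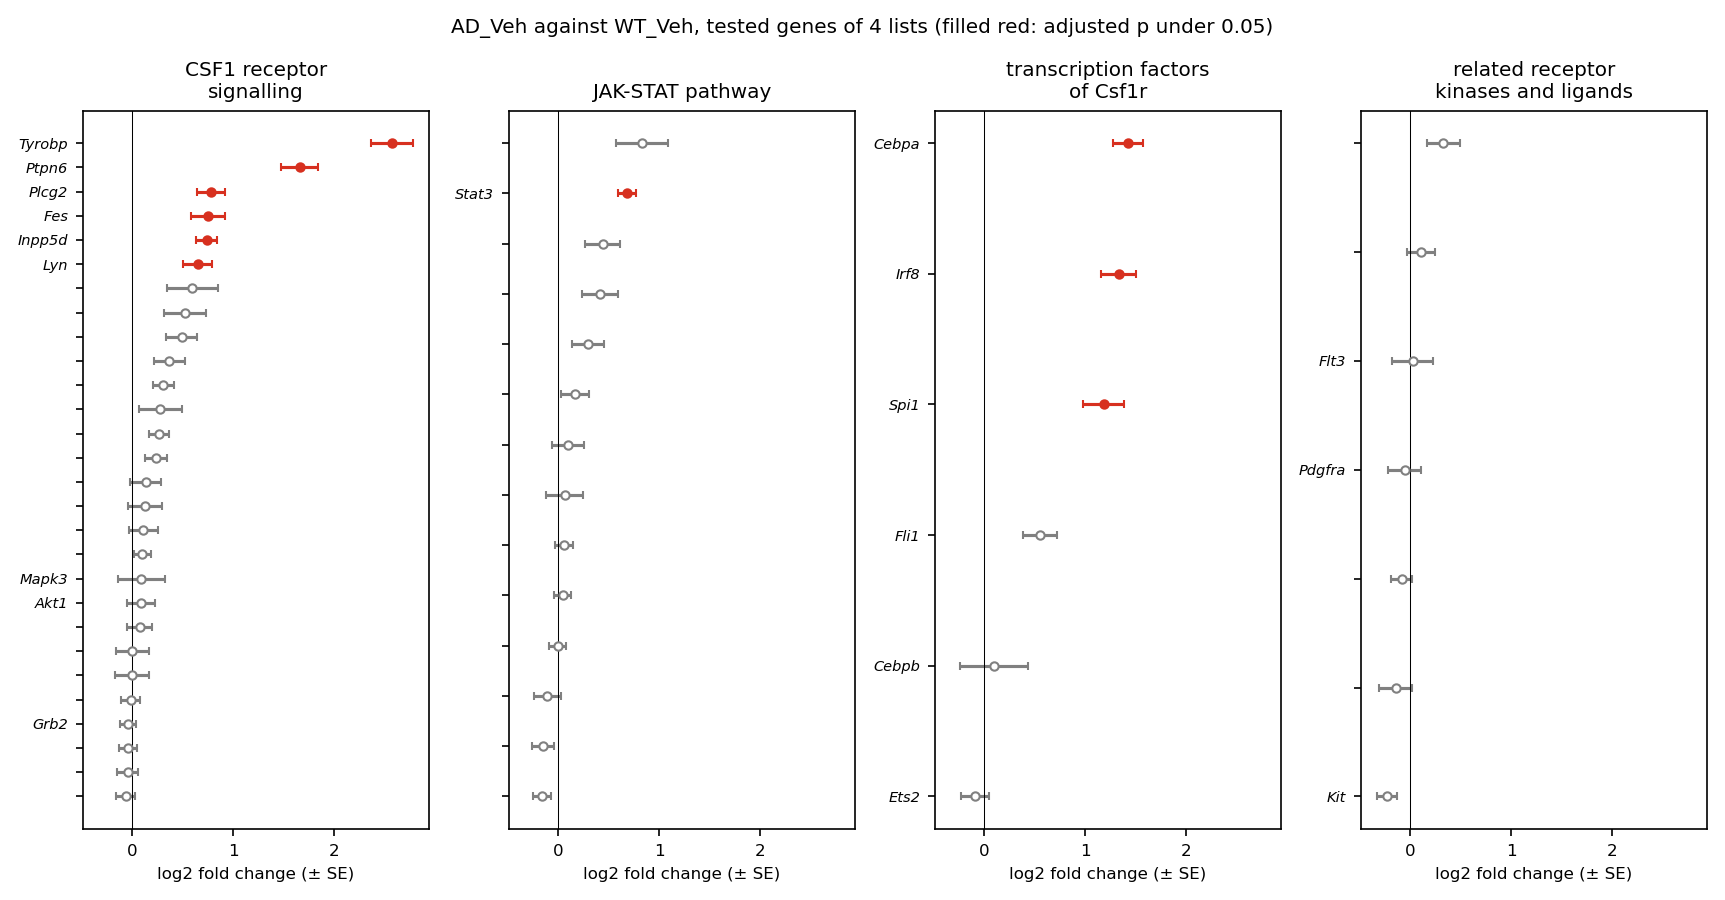
Log2 fold change with SE, AD_Veh against WT_Veh, for tested genes of 4 lists, with the genes named in the text labelled. Filled red points have an adjusted p under 0.05, among them Tyrobp and Ptpn6 in signalling, Stat3 alone in the JAK-STAT pathway, and Cebpa, Irf8 and Spi1 among the factors of Csf1r, while no related kinase or ligand is filled.

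Markers of the cell types that could carry these receptors were described by list. Of 20 microglia markers 16 were called higher in AD_Veh, with a median log2 difference of 1.37, and of 12 plaque-associated microglia genes 11, with a median of 2.26. The share called higher over all tested genes was 2.83%. Under high P the counts were 14 of 20 and 10 of 12, where 1.50% of all tested genes were called higher. Of the border macrophage markers 0 of 5 tested were called in AD_Veh, with a summed level of 2.80 to 4.47 FPKM in WT_Veh and 3.54 to 7.11 in AD_Veh. Of the monocyte markers the extracellular protein Fn1 was the only gene tested and was not called, and Ccr2 stood at 0.0302 ± 0.0442 and 0.0343 ± 0.0195 FPKM in WT_Veh and AD_Veh. Of the lymphocyte and dendritic cell markers 9 of 10 were under the minimum and 0 of the 1 tested was called, with a summed level of 0.862 to 13.1 FPKM in WT_Veh and 2.91 to 6.70 in AD_Veh. Within that list the T cell marker Cd8a was not tested and had 4 reads over the 5 WT_Veh libraries and 6 over those of WT_HighP, against 40 for AD_Veh, 84 for AD_LowP and 32 for AD_HighP. The summed level of the 10 markers ran otherwise, with means of 5.93 ± 4.96 FPKM in WT_Veh and 3.72 ± 2.52 in WT_HighP. In 5xFAD mice it was 5.02 ± 1.61 FPKM for AD_Veh, 3.16 ± 2.91 for AD_LowP and 2.11 ± 1.44 for AD_HighP. Of 10 astrocyte markers 2 were called higher, Gfap (log2 3.69, adjusted p = 2.61e-11) and Aqp4 (log2 0.93, adjusted p = 0.00773), and of the excitatory neuron markers 0 of 10 were called. Since 3.10% of all tested genes were called, counts of 0 in lists this short lie near that share.

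The genes whose levels ran most like those of each member, by Pearson r of log2 deviations from group means over 25 libraries among 11948 named genes that averaged 1 FPKM or more, differed between the members. For Csf1r they were Pbxip1 (r = 0.872), the lysosomal membrane gene Laptm5 (0.846), the microglial transcription factor Sall1 (0.830), the transporter Slco2b1 (0.822) and the integrin Itgb5 (0.800). For Csf1 they were Lbh (0.809), Rbbp8 (0.791), Nfkb1 (0.790), the chemokine Ccl27a (0.778) and the vesicle protein Rph3a (0.767). For Il34 they included the adrenergic receptor Adra2a (0.867), the pentraxin receptor Nptxr (0.852), the adenylate kinase Ak5 (0.851) and the adhesion molecule Cadm3 (0.849). Libraries share depth and GC slope, so these values describe the libraries together with the tissue. Of the 5 genes beside Csf1r, Pbxip1, Laptm5, Slco2b1 and Itgb5 were called higher in AD_Veh than in WT_Veh, and none of those named beside Csf1 or Il34 was called. Over all tested genes 2.83% were called higher and 3.10% were called, so the absence of calls among so few genes lies near that share. Laptm5 is also in the microglia list.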

How the data were processed

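Libraries were strand-specific and poly(A)-selected, per the labels' protocols. The authors' deposited table gives FPKM per gene with gene length and annotation. HISAT2 and mm10 are named in the submitters' processing notes, with no version, and the counting tool and annotation release are not stated there. The deposited FPKM values are whole reads in 100% of values (tolerance 0.01), so reads and depth (15518358 to 17698222 a library) were recovered. Genes that reached 0.5 FPKM in 5 or more libraries were tested on log2(FPKM + 0.5) with limma 3.58.1 (R 4.3.3, trended eBayes, 5 groups in 1 fit, Benjamini-Hochberg). Ratios used two-sided exact permutation tests and correlations 100000 permutations. Intervals and floors cover counting error only. No label pairs the mice, and p-values measure the spread between mice. The members and lists were chosen with earlier results of these data known. Named genes were the 7 members, the 5 most alike for Csf1r, Csf1 and Il34, and of each list at most 4 called genes by size of change, defining markers and genes at 0; Inpp5d, Lyn and the genes named as not called were added after their values were seen. Alternatives were pseudocounts, filters, normalisations, voom, array weights, GC correction, sex, a replicate block and single mice left out. Leaving out the 4 libraries of high Ttr, and the block with GC correction, were chosen after seeing the data. The scripts were tested on simulated data. Some genes of the lists are not reported here.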

Additional observations from a re-analysis of the deposited data

Results flagged for a closer look

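Csf1r in AD_HighP mouse 2 stood at 38.6 FPKM, while the other mice of that group lay between 29.9 and 32.3 FPKM, a gap large for the range of 5 samples. Among the 35 gene and group combinations examined it was the only such value, and chance gives about 1 in 20.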

How the results depend on the processing

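Csf1r, Csf1 and Csf3r were called higher in 5xFAD mice in both genotype comparisons under all 24 alternatives each. The members called in AD_Veh against WT_Veh numbered 5 with array weights, against 3, and 3 to 4 when single mice were left out, the additions being Csf2rb and Csf2rb2, whose entry into the test depended on genotype and which count for nothing here. For Csf1 to Il34 under high P the difference ran from 1.07 to 1.34 when single mice were left out, and 4 of those values were not called. A test with a mouse left out has fewer arrangements, so those 4 cannot show whether the result rests on single mice. The correlation of Csf1 and Il34 in 5xFAD mice was -0.753 around group means. Of the single-member results 665 kept their side of the threshold and 9 passed it only under an alternative. That tally covers all members in the genotype comparisons but only some of them in the comparisons of P and the interaction. The 18 pairs of gene and comparison that changed sign under some setting are not in it. The number of genes called overall was 811 with array weights, against 510, for AD_Veh against WT_Veh, and 970, against 288, for AD_HighP against WT_HighP, which was 132 without the libraries of high Ttr. For WT_HighP against WT_Veh it was 522, from 0 with no filter to 3371 with array weights, 2724 without WT_Veh mouse 1 and 0 to 88 without WT_Veh mouse 2, 3, 4 or 5 or WT_HighP mouse 1, 2, 3 or 4. No label says that replicate numbers pair the mice, though numbers 1 to 3 were male in every group: same-numbered mice correlated with a median of 0.021 and others with 0.0085. With the replicate block 3 members were called for AD_Veh against WT_Veh, as without it. Every group holds each replicate number, so the block can change the SE but not a log2 difference. The 1.14 of Csf1r was thus bound to stay the same and is no check. At 6 to 56 reads a library, Csf2rb2 is limited by depth.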
